A study of Mus musculus with 4 samples.

Results

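The dual-specificity MAPK phosphatase genes Dusp1, Dusp2, Dusp4, Dusp5, Dusp6, Dusp10 and Dusp16 were examined for open chromatin in macrophages before and after IL-4. ATAC-seq reads open chromatin through the places where the Tn5 transposase can insert adapters into the DNA of nuclei. Peaks of the 4 ATAC-seq libraries that shared at least 1 bp were merged into 60710 regions. A region belonged to a gene when that gene had the transcription start site (TSS) nearest to the highest peak of the region, and this rule gave 69 regions for the 7 genes. Assignment by the nearest TSS does not say that a region acts on the gene. The cells were wild-type mouse bone marrow-derived macrophages (BMDMs) from animals of 8 to 12 weeks, cultured for 6 days with L929 supernatant, which supplies the growth factor M-CSF. Control cells (n = 2 libraries) received no IL-4, and treated cells were given 20 ng/ml of IL-4 over 1 h (n = 2 libraries).

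The dual-specificity MAPK phosphatases remove the phosphates from both the threonine and the tyrosine of the activation loop of MAP kinases and so switch these kinases off. Many are immediate early genes, induced by the same kinases that they inactivate, which forms a negative feedback loop. In macrophages they limit the length and strength of inflammatory signaling, while IL-4 signals through STAT6 and polarizes macrophages to the alternative state.

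The value of a peak is called its height here. It was read as −log10 of a q-value, which rises with the number of reads of a library, so it is no count and cannot be compared between libraries without normalisation. There were 45250 and 41885 peaks in the control replicates 1 and 2, with median heights of 8.04 and 7.46, and 41978 and 39462 with IL-4, with median heights of 7.69 and 6.41. IL-4 replicate 2 was the lowest of the 4 libraries in 49.0% of the 25442 regions with a peak in every library, so deposited heights are given below beside normalised ones. Promoter peaks in every library were found for 7 of 9 macrophage markers, whose summed promoter height was 102 and 94.2 in the controls and 85.7 and 81.8 with IL-4. Csf1r and Itgam lacked a promoter peak but had regions within 10 kb. None of 12 markers of other cell types had a promoter peak in any library. By the wider measure, 4 of these 12 had a region within 10 kb, and 2 had such a region with a peak in every library.

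Sequences of some of the regions described below are shown first, and no height difference was tested against their letters. They are 200-base windows at the middle of a region, from the RefSeq assembly GRCm38.p6, which is the mm10 build of the files. The letters searched for, on both strands, were TTCNNNNGAA (the spacing bound by STAT6), TTCNNNGAA (the spacing of other STAT proteins), TGANTCA (AP-1), TGACGTCA (the cyclic AMP response element, CRE), GAGGAAGT (the macrophage factor PU.1), the CArG box of serum response factor and the NF-kB site. Capitals mark a match. A match is a description of the letters and not a binding site.

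The first 4 windows are those of a Dusp6 upstream region with the lowest p among the 28 tested, a Dusp1 region with a pair of AP-1 matches, and 2 further Dusp6 regions with lower heights in both IL-4 libraries:
Dusp6 −1360 bp, chr10:99261754-99261953, plus strand: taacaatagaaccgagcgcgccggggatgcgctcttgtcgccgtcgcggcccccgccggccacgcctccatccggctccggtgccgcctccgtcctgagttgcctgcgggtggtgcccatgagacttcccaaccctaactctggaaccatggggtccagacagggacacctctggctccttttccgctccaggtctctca
Dusp1 −6390 bp, chr17:26514769-26514968, plus strand: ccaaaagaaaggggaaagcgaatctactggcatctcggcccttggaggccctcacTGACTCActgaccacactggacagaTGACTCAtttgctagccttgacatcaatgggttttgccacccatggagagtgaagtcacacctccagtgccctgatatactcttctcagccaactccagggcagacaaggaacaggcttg
Dusp6 −12249 bp, chr10:99250876-99251075, plus strand: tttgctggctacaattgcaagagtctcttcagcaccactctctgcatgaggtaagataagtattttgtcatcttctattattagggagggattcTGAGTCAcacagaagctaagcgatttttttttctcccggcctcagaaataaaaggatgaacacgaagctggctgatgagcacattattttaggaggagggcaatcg
Dusp6 +5686 bp, chr10:99268815-99269014, plus strand: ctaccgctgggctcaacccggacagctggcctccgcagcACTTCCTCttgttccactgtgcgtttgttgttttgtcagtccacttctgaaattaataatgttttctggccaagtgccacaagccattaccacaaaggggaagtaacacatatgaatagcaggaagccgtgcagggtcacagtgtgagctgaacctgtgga

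The next windows are a distal Dusp10 region with higher heights in both IL-4 libraries and the Dusp6 region that holds the STAT6 letters and a peak in every library:
Dusp10 +240382 bp, chr1:184274745-184274944, plus strand: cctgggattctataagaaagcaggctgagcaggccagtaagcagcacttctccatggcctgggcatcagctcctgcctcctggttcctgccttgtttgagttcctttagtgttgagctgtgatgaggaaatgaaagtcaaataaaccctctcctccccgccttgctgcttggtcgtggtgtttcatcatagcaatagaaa
Dusp6 +133667 bp, chr10:99396804-99397003, plus strand: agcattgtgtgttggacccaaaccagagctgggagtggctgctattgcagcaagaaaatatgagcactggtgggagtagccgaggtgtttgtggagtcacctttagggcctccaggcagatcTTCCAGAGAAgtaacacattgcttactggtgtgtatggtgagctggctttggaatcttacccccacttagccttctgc

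For the promoters that hold a match, the 250 bases upstream of the RefSeq start are shown 5′ to 3′ on the strand of the gene:
Dusp1 promoter, chr17:26508473-26508722, minus strand: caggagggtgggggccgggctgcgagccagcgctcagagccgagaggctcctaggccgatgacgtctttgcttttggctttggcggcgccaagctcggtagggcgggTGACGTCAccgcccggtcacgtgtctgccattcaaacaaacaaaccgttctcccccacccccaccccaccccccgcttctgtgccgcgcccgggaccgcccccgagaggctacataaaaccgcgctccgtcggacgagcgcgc
Dusp5 promoter, chr19:53528895-53529144, plus strand: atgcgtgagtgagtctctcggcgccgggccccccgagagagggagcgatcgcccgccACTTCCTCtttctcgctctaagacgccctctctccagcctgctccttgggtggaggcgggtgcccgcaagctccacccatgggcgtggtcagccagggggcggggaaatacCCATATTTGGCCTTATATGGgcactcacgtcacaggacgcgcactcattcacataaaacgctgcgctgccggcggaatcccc

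Dusp6 had the most regions, with 23, followed by Dusp4 with 12, Dusp10 with 10, Dusp5 with 9, Dusp1 with 8, Dusp16 with 6 and Dusp2 with 1. Of 16244 genes with any region, 0.609% had as many as Dusp6. The regions of the 7 genes lay farther from a TSS than regions in general, with a median distance of 34892 bp against 14419 bp, and 69.6% of them were intergenic against 35.8% of all regions. Introns held 13 regions, promoters 7 and exons 1. A peak in every library was found in 28 of the 69 regions (40.6%, against 41.9% of all regions), and 20 regions had a peak in a single library (29.0%, against 29.6%). The share of regions seen repeatedly was therefore close to that of the whole table. Regions with a peak in every library had mean heights from 5.51 to 25.6, whereas those with a peak in a single library ranged from 2.49 to 8.34.

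**Figure D1:**
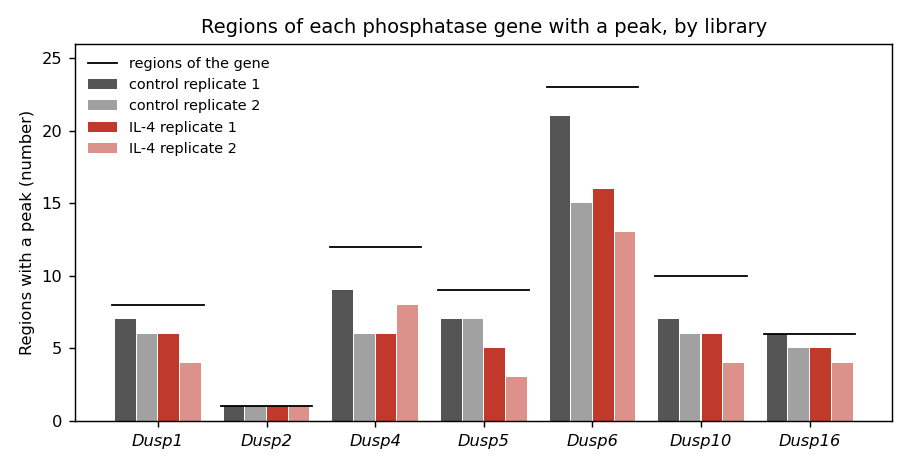
Number of regions of each phosphatase gene with a peak in each of the 4 libraries (bars) and the number of regions of the gene (black lines). Control replicate 1 had a peak in 21 of the 23 Dusp6 regions and IL-4 replicate 2 in 13, whereas the single Dusp2 region had a peak in every library.

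Promoter heights differed widely among the genes. None of the 5 promoters with a peak in every library passed the test for a change with IL-4 that is described below, as against 0 of all 7919 such promoters. Among these 5, the Dusp6 promoter was the highest and lay among the top 10.6% of all promoters with a peak in every library. The region over the Dusp10 start, counted under a neighbouring gene and described below, was higher, with 1.46% of these promoters at least as high. Dusp5 and Dusp2 were in the middle, with 39.6% and 40.3% of these promoters at least as high. Dusp4 followed at 69.9% and Dusp16 stood near the bottom at 94.2%, while the Dusp1 promoter lacked a peak in 1 library. Heights carry no correction for the length of a region, which was 319 to 541 bp for these promoters. The range over the 4 libraries of Dusp6 (21.2 to 29.5) did not overlap that of Dusp5 (13.5 to 17.5), whereas the ranges of all other neighbours in this order overlapped. Library by library, Dusp6 was above Dusp5, Dusp2 above Dusp4 and Dusp4 above Dusp16 in all 4, while Dusp5 and Dusp2 changed places between libraries.

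**Figure D2:**
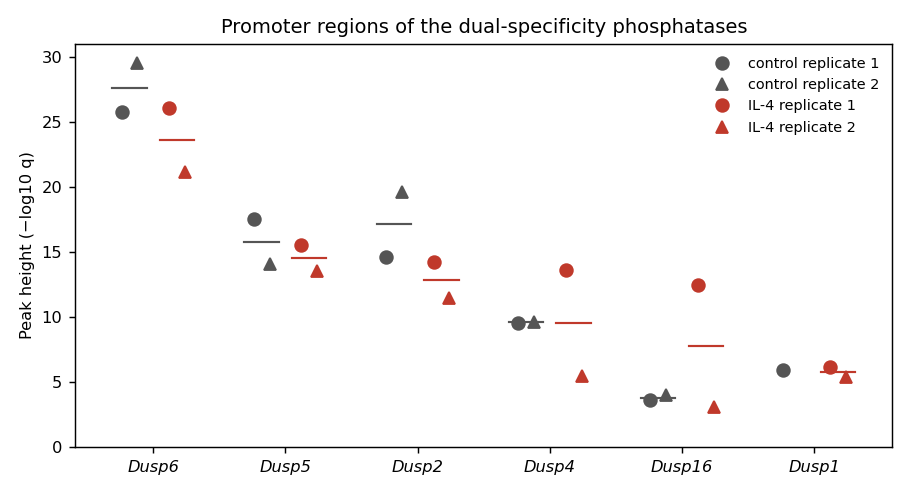
Peak height (−log10 q) of 6 promoter regions in the control (grey) and IL-4 (red) libraries, where circles are replicate 1, triangles are replicate 2 and short lines are the mean of a group with 2 peaks. Dusp6 sits between 21.2 and 29.5, and IL-4 replicate 1 stands apart at Dusp16 with 12.4. Dusp1 has no peak in control replicate 2.

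The height of the 28 regions with a peak in every library was compared between groups with limma on log2 heights that were quantile-normalised over the 4 libraries, in a fit over all 25442 such regions. None of the 28 regions passed an adjusted p of 0.05, as against 6 of all regions (0.0236%). At an unadjusted p under 0.05, 1 of the 28 was lower with IL-4 (3.57%, against 4.15% of all regions) and none was higher (against 4.12%). The median log2 difference, IL-4 minus control, was −0.06 over the 28 regions, and 15 of them were negative, against 50.1% of all regions. With a library left out this median lay between −0.18 (without control replicate 2) and 0.0064 (without IL-4 replicate 2), so its sign was not stable. With SEs between 0.25 and 0.57, only 8 of the 28 differences were larger than their own SE. In limma an SE draws on the spread of all regions of similar height, and not only on the 4 libraries at that region. A p above the threshold does not show that a height was unchanged, since each group had 2 libraries. In bulk libraries, a region open in fewer cells and a region less open in every cell cannot be told apart.

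The order of the libraries gave the same picture. In deposited heights, both IL-4 libraries were below both control libraries in 9 of the 28 regions (32.1%, against 29.3% of all regions) and above them in 1 (3.57%, against 8.83%). After normalisation the counts were 6 lower (21.4%, against 18.6%) and 2 higher (7.14%, against 19.2%). The share with lower IL-4 heights was near the background on both scales. IL-4 replicate 2 was the lowest library in 16 of the 28 regions (57.1%), and control replicate 1 the highest in 14.

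**Figure D3:**
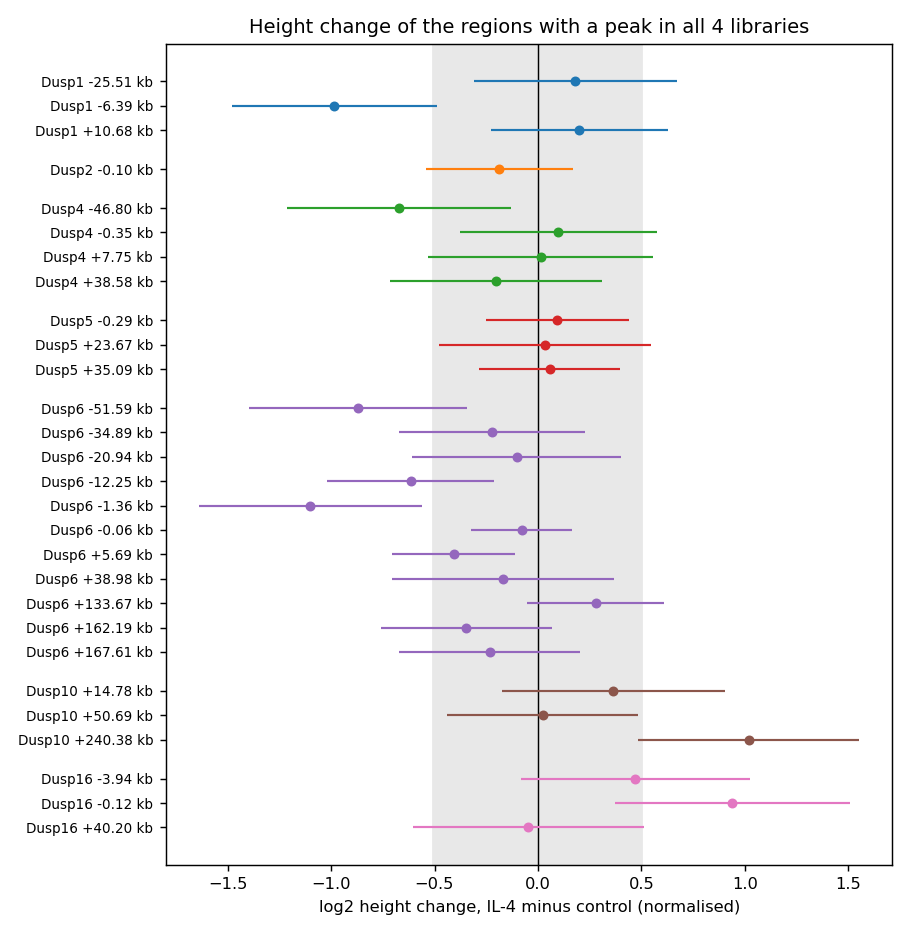
Log2 difference in normalised height, IL-4 minus control, for the 28 regions that had a peak in every library (points, with SE bars from limma), labelled by gene and distance from the TSS. The grey band is 1 SD (0.50) around the median of all 25442 regions (black line), and 10 of 11 Dusp6 points lie left of the line.

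Dusp1 encodes a nuclear phosphatase that is induced within minutes by stress and growth signals and acts mainly on p38 and JNK. Its promoter region (chr17:26508363-26508717, −152 bp) had heights of 5.89 in control replicate 1, 6.18 in IL-4 replicate 1 and 5.39 in IL-4 replicate 2, and no peak in control replicate 2. The 3 heights lay close together (SD 0.40). The missing peak kept this promoter out of the fit over regions with a peak in every library. With that peak set at the lowest height of its library, the log2 difference was 1.321 ± 0.876 (SE, limma, adjusted p = 0.650), and it rests on the imputed value. This promoter was the sole member promoter with CRE letters, at −143 to −136 bp from the start, which 1.79% of 32851 RefSeq promoters hold.

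The highest Dusp1 regions lay outside the gene. The region at +10680 bp (chr17:26497355-26497979) had control heights of 11.2 and 10.7 and IL-4 heights of 13.4 and 8.40, which overlapped. At −6390 bp (chr17:26514768-26514968) the control heights were 19.8 and 8.30 and the IL-4 heights 5.22 and 6.01. Both IL-4 libraries were thus below both control libraries, but control replicate 2 was nearer to the IL-4 libraries than to control replicate 1. The log2 difference was −0.98 ± 0.50 (SE) with an adjusted p of 0.610 in limma, and without control replicate 1 it was −0.42. The window of this region holds a pair of TGACTCA matches with 18 bases between them. The region at −25510 bp also holds a pair of AP-1 matches and had overlapping heights of 13.7 and 5.46 in the controls and 8.54 and 8.18 with IL-4. Further Dusp1 regions, named after their values were seen, lay in exon 1 at +370 bp (6.76 and 3.81 in the controls) and at +5357 bp (10.3 in both controls). With IL-4 they had peaks of 2.69 and 5.93 in replicate 1 and none in replicate 2.

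Dusp2 encodes a nuclear phosphatase of activated leukocytes. It had a single region, its promoter (chr2:127335844-127336286, −103 bp), with control heights of 14.6 and 19.6 and IL-4 heights of 14.3 and 11.4. Deposited heights were lower in both IL-4 libraries, whereas normalised heights overlapped. The log2 difference of −0.19 ± 0.36 (SE) was smaller than its error (limma, adjusted p = 0.935), and without control replicate 2 it was +0.12. None of the motifs was found in the window of this region.

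Dusp4 encodes a nuclear phosphatase of ERK and JNK. Its promoter region (chr8:34807015-34807555, −352 bp) had control heights of 9.57 and 9.61 and IL-4 heights of 13.6 and 5.44. The control libraries lay between the IL-4 libraries, and the log2 difference was 0.10 ± 0.48 (SE, limma, adjusted p = 0.979). Regions upstream lay in a group between −67205 and −44718 bp. The highest of them, at −44718 bp (chr8:34762796-34763057), had no peak in control replicate 1 and heights of 15.8 in control replicate 2, 10.2 in IL-4 replicate 1 and 2.19 in IL-4 replicate 2. This region thus varied as much within a group as between groups. The neighbour at −46802 bp, named after its values were seen, had heights of 10.1 and 5.66 in the controls and 4.01 and 4.09 with IL-4, with a log2 difference of −0.67 ± 0.54 (SE, limma, adjusted p = 0.797).

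Downstream of Dusp4, the region at +38576 bp lay in an intron of the neighbouring gene Tnks and had control heights of 11.3 and 6.81 and IL-4 heights of 5.34 and 7.86. The groups overlapped there. AP-1 letters were found in 6 of the 12 Dusp4 regions, against 20.4% of all regions.

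Dusp5 encodes a nuclear phosphatase that acts on ERK alone. Its promoter region (chr19:53528859-53529205, −287 bp) had control heights of 17.5 and 14.1 and IL-4 heights of 15.5 and 13.5, and these overlapped. The log2 difference was 0.09 ± 0.35 (SE, limma, adjusted p = 0.970), and over all 11 alternatives it kept its sign. Of these alternatives, those without a variance trend and with a replicate block cannot change a difference. The promoter holds 2 CArG boxes that touch each other, CCATATTTGG at −82 to −73 bp and CCTTATATGG at −72 to −63 bp, beside the reverse complement of the PU.1 letters at −193 to −186 bp. A CArG box was found in 1.63% and the PU.1 letters in 3.20% of RefSeq promoters. A second small region at −17 bp had a peak of 2.87 in IL-4 replicate 1 alone.

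The highest Dusp5 region lay at +35095 bp (chr19:53564271-53564556), with heights of 20.88 and 12.98 in the controls and 17.6 and 12.5 with IL-4. In both groups replicate 1 was higher than replicate 2, and the groups overlapped, with a log2 difference of 0.06 ± 0.34 (SE, limma, adjusted p = 0.983). The region at +23671 bp had heights of 9.71 and 7.24 against 5.34 and 9.89 with IL-4. Dusp5 had 2 of the 5 regions with a peak in both control libraries and in neither IL-4 library, in intron 1 at +499 bp with heights of 3.22 and 4.10, and at +18392 bp with heights of 4.44 and 5.60.

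Dusp6 encodes the cytoplasmic phosphatase of ERK and is a standard readout of ERK activity. Its 23 regions ran from −68383 to +172703 bp, and 21 of them were intergenic. The promoter region (chr10:99262953-99263399, −55 bp) had control heights of 25.8 and 29.5 and IL-4 heights of 26.1 and 21.2. These overlapped, and the log2 difference was −0.08 ± 0.25 (SE, limma, adjusted p = 0.962), the smallest SE among the 28 regions.

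None of the 11 Dusp6 regions with a peak in every library passed the adjusted threshold (against 0.0236% of all regions). The 11 were read from the same 4 libraries and are not replicates of the treatment. In the 17 tested regions of the other genes, 12 log2 differences were positive and 5 negative, with a median of 0.06. Among the 11 Dusp6 regions, the difference was negative in 10, against 50.1% of all regions, with a median of −0.23. The count was 9 with median scaling, 8 without control replicate 1, 9 without control replicate 2, 10 without IL-4 replicate 1 and 7 without IL-4 replicate 2, where the median was −0.07. The region at −1360 bp (chr10:99261706-99262000) had control heights of 8.92 and 11.4 and IL-4 heights of 6.22 and 2.49. Both IL-4 libraries were below both control libraries, and the log2 difference of −1.10 ± 0.54 (SE) had the lowest p of the 28 regions, 0.0457, with an adjusted p of 0.591 in limma. Without IL-4 replicate 2 the difference was −0.62, and it was −0.52 when peaks within 500 bp were merged, because the region then took in its neighbour at −1706 bp, which had heights of 9.03 in control replicate 1 and 5.59 in IL-4 replicate 2 and no peak in the other libraries.

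At +5686 bp (chr10:99268727-99269101), downstream of the gene, the second highest Dusp6 region had control heights of 25.0 and 21.6 and IL-4 heights of 18.4 and 12.9. All 11 alternatives gave a negative difference there, though those without a variance trend and with a replicate block cannot change it. The reported difference was −0.41 ± 0.30 (SE, limma, adjusted p = 0.771). The window of this region holds the reverse complement of the PU.1 letters. Further regions were chosen after their values were seen. The region at −12249 bp, with an AP-1 match, had heights of 14.4 and 18.1 in the controls and 8.31 and 9.69 with IL-4, and the log2 difference was −0.62 ± 0.40 (SE). At −51585 bp the heights were 12.3 and 7.46 against 5.34 and 3.73. In each of these regions both IL-4 libraries were the lower, and the adjusted p was 0.730 and 0.691 in limma.

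The region at +133667 bp (chr10:99396661-99397145) was the exception among the 11, and it holds the STAT6 letters. Its control heights were 15.5 and 16.6 and its IL-4 heights 17.4 and 16.4, an SD over the 4 libraries of 0.75. Deposited heights overlapped and normalised ones were higher in both IL-4 libraries, with a log2 difference of 0.28 ± 0.33 (SE, limma, adjusted p = 0.882). The STAT6 letters were found in 4 of the 23 Dusp6 regions (17.4%, against 6.35% of all regions). The other holders, at −68383, −15295 and +130537 bp, lacked a peak in at least 1 library. Farther out, regions that were named after their values were seen lay at +162192 and +167608 bp. At +162192 bp 3 libraries lay between 14.1 and 15.2 and IL-4 replicate 2 at 6.17. At +167608 bp replicate 1 of each group was high, at 21.1 in the control and 17.0 with IL-4, and replicate 2 was low, at 8.63 and 5.65.

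**Figure D4:**
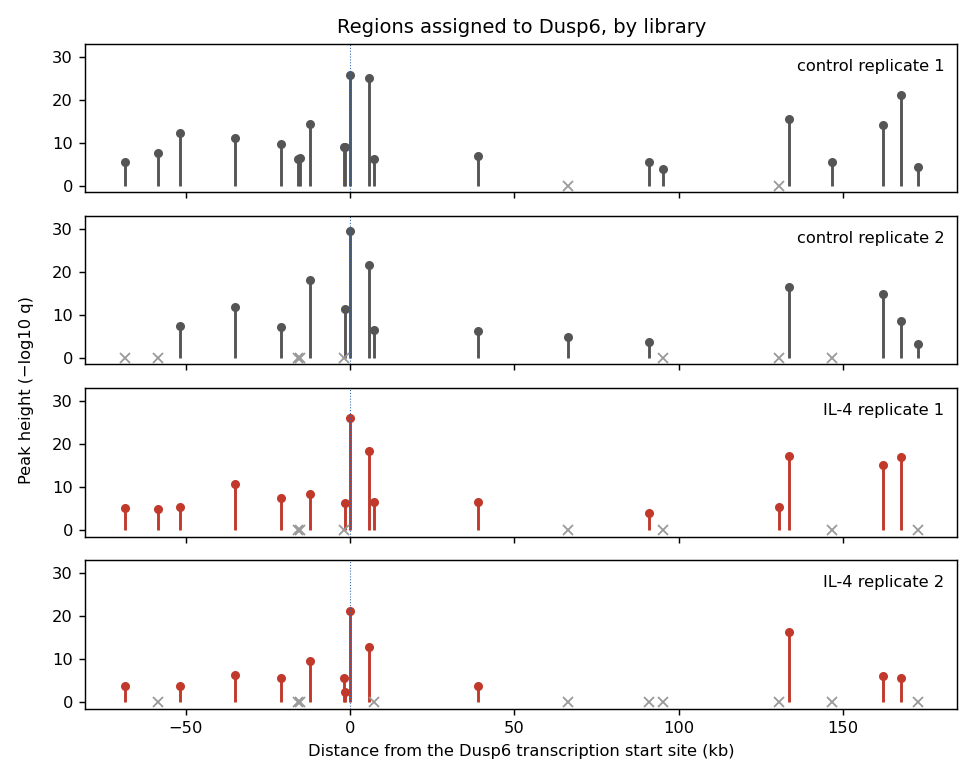
Peak height (−log10 q, vertical axis) of the 23 Dusp6 regions against distance from the TSS in kb, with a panel for each library. Crosses at 0 mark regions without a peak in that library, and the dotted line is the TSS. The promoter and the region at +5686 bp are the highest in both control libraries, and the region at +133667 bp keeps a height of 15.5 to 17.4 in every library.

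Dusp10 encodes a phosphatase of JNK and p38. Its start lies beside that of the gene 1700056E22Rik, and the region over both starts (chr1:184033416-184034529) was counted under that gene because its highest peak was nearest to the other start. Its values, looked up after this was seen, were 37.5 and 41.1 in the controls and 40.4 and 32.0 with IL-4, higher than any of the 69 regions. The groups overlapped, with a log2 difference of −0.03 ± 0.19 (SE, limma, adjusted p = 0.981). The 10 regions that the rule gave to Dusp10 all lay downstream, from +14783 to +261090 bp.

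In intron 2 of Dusp10, the region at +14783 bp had control heights of 11.3 and 3.69 and IL-4 heights of 7.82 and 6.38. At +50693 bp the heights were 10.3 and 10.2 against 7.73 and 10.1 with IL-4. Neither pair of groups was apart after normalisation, with log2 differences of 0.37 ± 0.54 and 0.02 ± 0.46 (SE). The region at +240382 bp (chr1:184274731-184274958), named after its values were seen, had heights of 4.49 and 4.15 in the controls and 7.96 and 7.08 with IL-4. It was the sole region of the 28 with both IL-4 libraries higher on the deposited scale, and the log2 difference was 1.02 ± 0.54 (SE) with an adjusted p of 0.630 in limma. None of the motifs was found in its window. The region at +261090 bp had a single peak of 8.34 in control replicate 1.

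Dusp16 encodes a phosphatase that shuttles between nucleus and cytoplasm and acts on JNK and p38. Its promoter region (chr6:134792624-134792942, −118 bp) had control heights of 3.59 and 4.0 and IL-4 heights of 12.4 and 3.08. IL-4 replicate 1 was the highest of the 4 libraries and IL-4 replicate 2 the lowest, so the groups overlapped. The log2 difference, the largest of the 5 member promoters in the fit, was 0.94 ± 0.57 (SE, limma, adjusted p = 0.691), and without IL-4 replicate 1 it was 0.08. The 3 promoters of other genes with the most similar pattern over the 4 libraries, by Euclidean distance of centred normalised heights among 7914 promoters, were those of Ccdc40 (0.307), Reep4 (0.332) and Arl4d (0.341). Each of them was highest in IL-4 replicate 1, at 10.2, 17.0 and 15.0, which follows from their choice by similarity to this pattern.

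Within intron 3 of Dusp16, 3 regions lay close together. At +40196 bp the heights were 4.55 and 9.12 in the controls and 9.12 and 3.17 with IL-4, and at +39054 bp they were 3.39 and 9.25 in the controls and 5.48 in IL-4 replicate 1. Neither separated the groups. The third, at +40884 bp, had control peaks of 2.63 and 4.98 and none with IL-4.

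Regions with a peak in both control libraries and in neither IL-4 library numbered 5 of 69 (7.25%, against 4.33% of all regions), and none had the reverse pattern (against 2.53%). Besides those of Dusp5 and Dusp16 named above, they lay at +48830 bp of Dusp10 (6.22 and 4.96) and at +172703 bp of Dusp6 (4.38 and 3.35). All 5 were low, with no height above 6.22. The count was 3 when peaks within 500 bp were merged, and it was 10 without control replicate 1, 16 without control replicate 2 and 11 without IL-4 replicate 1, where presence in a group needs a single library. More control than IL-4 libraries had a peak in 27 of 69 regions (39.1%, against 29.1%), and more IL-4 than control libraries in 10 (14.5%, against 20.7%). The balance had the same direction in each of the 6 genes with more than 1 region, at 4 against 1 for Dusp1, 4 against 3 for Dusp4, 5 against 1 for Dusp5, 8 against 2 for Dusp6, 4 against 2 for Dusp10 and 2 against 1 for Dusp16. All regions together also leaned to the controls, at 17652 against 12541. The genes were read from the same 4 libraries and are not replicates of the treatment.

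The libraries differed in how many peaks they held at these genes. Control replicates 1 and 2 had 60 and 47 peaks and the IL-4 replicates 47 and 39, a difference in means of −10.5 (exact permutation test over the 4 libraries, two-sided, p = 0.667). The smallest p that 2 against 2 libraries allow is 0.33. As a share of all peaks of a library, the values were 0.1326% and 0.1122% in the controls and 0.1120% and 0.0988% with IL-4. Regions of these genes with a peak numbered 58 and 46 in the controls and 45 and 37 with IL-4. By both of these measures the controls were above the IL-4 libraries, and the exact permutation test gave that smallest p for each. Of the 20 regions with a peak in a single library, 11 were in control replicate 1, which also held 31.7% of such regions in the whole table. The part of library depth in these counts was not tested.

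When a missing peak was set at the lowest height of its library, 49 of the 69 regions, those with a peak in at least 2 libraries, entered the fit. Again none was called, as against 0 of all 42752 regions in that fit. The lowest p then belonged to control-only regions whose IL-4 values were imputed, namely +48830 bp of Dusp10 (log2 difference −1.94 ± 0.58, SE, adjusted p = 0.389) and +18392 bp of Dusp5 (−1.77 ± 0.59, SE, adjusted p = 0.389) in limma.

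Over all 69 windows, AP-1 letters were the most frequent, in 20 regions (29.0%, against 20.4% of all regions). Promoter regions, of which 4.59% hold these letters, made up 10.1% of the 69 regions and 18.8% of all regions. PU.1 letters were in 8 (11.6%, against 9.15%), the other STAT spacing in 7 (10.1%, against 5.84%), the STAT6 spacing in 5 (7.25%, against 6.35%) and NF-kB sites in 5 (7.25%, against 5.09%). CRE letters and the CArG box were each in 1 (1.45%, against 0.913% and 1.04%). None of the motifs was in 30 of the 69 windows. A window can reach past the merged peaks, and a match lay outside them at Dusp10 +237013 bp, Dusp16 +39054 and +40884 bp and Dusp5 +499 bp. The median GC content of the windows was 48.5%, against 50.5% in all regions. It was 68.5% against 64.5% in promoters and 48.2% against 49.0% elsewhere.

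The rest of the MAP kinase pathway held no call either, but calls were rare in the whole table (6 of 25442 regions, 0.0236%). The list of 47 genes held the MAP kinases, the kinases that activate them or that they activate, other dual-specificity phosphatases and inhibitors of the pathway, and 45 of them had 292 regions, 130 with a peak in every library. None of the 130 passed the adjusted threshold in limma. At an unadjusted p under 0.05, 7 of the 130 were lower with IL-4 (against 4.15% of all regions) and 2 were higher (against 4.12%). The median log2 difference was −0.08. It ranged from −0.15 in the ERK feedback inhibitors of the Spry and Spred families to 0.01 in the MAP2 kinases. Presence gave 15 control-only and 11 IL-4-only regions of the 292, against 4.33% and 2.53% of all regions.

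The lowest p of the list was at a region −10954 bp from Dusp23, a small phosphatase of the same superfamily, with control heights of 39.8 and 31.6 and IL-4 heights of 19.4 and 12.0. Its log2 difference was −1.07 ± 0.26 (SE) with an adjusted p of 0.151 in limma. In 4 other classes the lowest p belonged to an intergenic Map3k1 region (−1.18 ± 0.36, adjusted p = 0.270), an intron of Spred2 (−1.33 ± 0.42, adjusted p = 0.317), an intron of Map2k6 (−0.98 ± 0.32, adjusted p = 0.33) and an intergenic Rps6ka3 region (−0.53 ± 0.36, adjusted p = 0.757), all as log2 difference with SE from limma. In these 5 regions both IL-4 libraries were lower than both control libraries on the deposited scale. That order was found in 29.3% of all regions, and a choice of regions by p favours it.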

How the data were processed

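ATAC-seq was performed on control and IL-4-treated BMDMs, with 2 libraries per group. The methods call them biological replicates, but the labels do not tie them to separate animals, so p-values concern libraries and not animals. A limma p-value also rests on spread shared over all regions and not only on the libraries at its own region. The authors' processing notes name BWA 0.7.10, SAMtools 0.1.19, MACS2 2.0.10 and HOMER 4.2 with the mm10 build. Peaks were called in each library, without pooling. How reads were shifted for the Tn5 cut and how duplicates were handled is not given in the sources used here. The deposited peak scores were read as −log10 of the MACS2 q-value, since the lowest was 1.30 to 1.32 in each library. The methods name a stricter cut-off of q, yet 133 and 259 control and 267 and 603 IL-4 peaks scored under 2. The files hold no reads or counts, so sequencing depth is unknown and the DiffBind comparison of the methods could not be repeated.

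Autosomal, X and Y peaks were merged at an overlap of 1 bp. A region took the highest score of each library and the gene and annotation of its highest peak. For regions seen in every library, log2 scores were quantile-normalised and fitted in R 4.3.3 by lmFit and eBayes of limma 3.58.1, using a variance trend, and p-values were adjusted over all regions by Benjamini-Hochberg at a threshold of 0.05. The fit was tested on simulated data. Motifs were searched in 200-bp windows of GRCm38.p6. RefSeq promoters were matched by symbol for 6 of the 7 genes, and Dusp4 had no entry. Of 69 regions, 63 had a deposited TSS distance within 250 bp of the distance to the RefSeq gene start.

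Regions were named when they were promoters, control-only or IL-4-only, among the 3 highest of a gene or under an unadjusted p of 0.05. The genes, the pathway list and the motifs were chosen with earlier results of these data known. The alternatives were median scaling, no variance trend, a replicate block, merging within 500 bp, 2 score minima, imputed missing peaks, the gene of any peak and leaving out each library. The region of lowest p in the MAP kinase class is not reported here.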

Additional observations from a re-analysis of the deposited data

How the results depend on the processing

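No region of the 7 genes and none of the pathway list was called under any of the 11 alternatives to the fit, and the lowest adjusted p was 0.522 among the 17 named regions with a peak in every library, and 0.389 among all regions of the 7 genes, at 2 control-only regions with imputed IL-4 values. The median log2 difference over the tested regions, −0.06 in the report, was −0.0052 with median scaling, −0.0365 with merging within 500 bp, −0.0392 with scores above the pooled median of 7.37, −0.100 with missing peaks set at the lowest score, and between −0.18 (without control replicate 2) and 0.0064 (without IL-4 replicate 2) when a library was left out. It was also above 0, at 0.0047, without control replicate 1. Regions with an unadjusted p under 0.05, 1 in the report, numbered 3 without a variance trend, 0 above the pooled median, 2 with imputed peaks and from 1 to 2 with a library left out. For the pathway list these were 9 of 130 regions in the report, 4 of 67 above the pooled median and 26 of 214 with imputed peaks. The shares over all regions in these fits were 8.28%, 7.05% and 11.3%. Control-only regions numbered 3 with merging within 500 bp and from 5 to 16 with a library left out, and IL-4-only regions from 1 to 5. Leaving out a library leaves a group with a single one, in which presence is easier to meet, and the lone library is then assumed to vary like the others. With scores above the pooled median, 33 regions were left, 9 of them with a peak in every library. Counting a region for the gene of any of its peaks gave 70 regions, 29 of them in every library. Of the values of single named regions, 159 of 178 kept their sign and 19 changed it, over 10 of 17 named regions. The fits without a variance trend and with a replicate block cannot change a difference. Their values are among the 178, so the count overstates how stable the signs were. The log2 difference became 0.009 at the Dusp6 promoter with median scaling, −0.039 at Dusp10 +50693 bp above the pooled median and 0.081 at Dusp16 +40196 bp with imputed peaks. With a library left out it ranged from −0.34 to 0.39 at Dusp10 +50693 bp, −0.38 to 0.57 at Dusp4 −352 bp, −0.67 to 0.25 at Dusp4 +38576 bp, −0.34 to 1.07 at Dusp10 +14783 bp, −0.27 to 0.10 at Dusp6 −55 bp, −0.37 to 0.74 at Dusp1 −25510 bp, −0.59 to 0.65 at Dusp5 +23671 bp, −0.20 to 0.33 at Dusp5 +35095 bp, −0.50 to 0.12 at Dusp2 −103 bp and −0.65 to 0.57 at Dusp16 +40196 bp. The labels do not say whether same-numbered libraries were prepared together. In normalised heights, the deviations of same-numbered libraries were uncorrelated over 25442 regions (Pearson r = 0.0068, Spearman rho = 0.0064). This cannot show how the libraries were prepared. With the replicate number as a block, 14 of all regions were called (0 to 12 under the other alternatives) but none of the 28, of which 2 had an unadjusted p under 0.05, and the lowest adjusted p was 0.557. Depth limits every height, because a score rises with the number of reads and the files do not give it.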
